A study of Mus musculus with 6 samples.

Results

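The transcripts described here are 9 genes that mark the first steps of granulocyte and monocyte formation: Mpo, Elane, Prtn3, Ctsg, Lyz2, Plac8, Clec12a, Tyrobp and Fcgr3. They were taken by gene name from the array's own annotation, control spots aside, and are read by 11 of the 55681 probes, with 2 probes each for Mpo and Plac8. Of the 9 genes, 8 had a probe whose signal stood well above background on 3 or more of the 6 arrays and entered the comparison, among 15682 genes in all. The samples were mouse LSK cells, sorted fresh for lack of lineage markers and for the surface proteins Sca-1 and c-Kit, a fraction in which hematopoietic stem cells and multipotent progenitors are found. There were 3 samples from NIKaly/aly mice (numbers 2, 4 and 6) and 3 from wild-type mice (numbers 1, 3 and 5), with no treatment named in the labels. NIK is the kinase at the head of the alternative NF-kB pathway (gene Map3k14), and aly is a germline mutation that disables it in every cell of the mouse, so that the host tissue of these progenitors carries it too. The labels give neither age, sex nor the number of animals behind a sample, nor say that samples came from separate animals. The p-values below therefore measure only how these samples scatter, and that scatter may be technical.

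Neutrophil precursors fill their first, azurophilic granules at the promyelocyte stage, and transcription of the granule proteins ends as the cells mature. Myeloperoxidase (Mpo) makes hypochlorous acid from hydrogen peroxide, and neutrophil elastase (Elane), proteinase 3 (Prtn3) and cathepsin G (Ctsg) are the serine proteases stored with it. Multipotent progenitors already carry some of these transcripts, and in them the transcripts go with a bias toward the granulocyte and monocyte fate. Lysozyme (Lyz2), which cleaves bacterial cell walls, stays on in mature neutrophils and macrophages, and so do the signalling adaptor Tyrobp and the IgG receptor Fcgr3.

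The sequences that carry these measurements are shown first. The probes for Mpo (the dimmer of its 2 probes, at chr11:87615121-87615180), Prtn3 (chr10:79343869-79344685) and Tyrobp (chr7:31200651-31202378) are given 5′ to 3′ as the array files hold them, with mm9 positions on the + strand. Each probe has 60 bases. The Prtn3 and Tyrobp positions span 817 and 1728 bases, so each of these probes lies across at least 1 intron. No base is in capitals, since none was set apart.
Mpo probe: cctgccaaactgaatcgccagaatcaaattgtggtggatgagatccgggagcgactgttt
Prtn3 probe: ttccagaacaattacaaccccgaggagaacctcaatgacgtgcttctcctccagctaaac
Tyrobp probe: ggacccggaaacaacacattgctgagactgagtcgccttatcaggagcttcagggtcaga

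The 4 primary granule genes have the promoters below, shown because these genes are known to be switched on together in promyelocytes. Each is the 250 bases before the gene's start in RefSeq on GRCm38.p6, 5′ to 3′ on the gene's own strand, at chr11:87793534-87793783 (+) for Mpo, chr10:79886062-79886311 (+) for Elane, chr10:79879417-79879666 (+) for Prtn3 and chr14:56102575-56102824 (-) for Ctsg. Capitals mark AGGAAGT, a form of the site of PU.1 and other Ets factors, and AACGG, the core of the Myb site.
Mpo promoter: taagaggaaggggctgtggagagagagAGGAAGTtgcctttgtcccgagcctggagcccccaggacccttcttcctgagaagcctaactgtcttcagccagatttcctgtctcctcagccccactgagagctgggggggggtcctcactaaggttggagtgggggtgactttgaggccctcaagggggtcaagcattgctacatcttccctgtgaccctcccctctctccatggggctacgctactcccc
Elane promoter: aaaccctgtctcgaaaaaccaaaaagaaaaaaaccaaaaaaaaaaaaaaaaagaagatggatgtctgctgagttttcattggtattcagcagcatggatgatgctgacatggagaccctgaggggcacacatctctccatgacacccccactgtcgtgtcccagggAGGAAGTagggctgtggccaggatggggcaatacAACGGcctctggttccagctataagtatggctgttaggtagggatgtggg
Prtn3 promoter: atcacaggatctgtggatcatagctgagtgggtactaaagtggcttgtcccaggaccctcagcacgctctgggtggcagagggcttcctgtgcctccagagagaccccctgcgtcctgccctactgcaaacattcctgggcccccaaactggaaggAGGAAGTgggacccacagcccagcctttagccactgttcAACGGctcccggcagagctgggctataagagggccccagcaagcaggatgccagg
Ctsg promoter: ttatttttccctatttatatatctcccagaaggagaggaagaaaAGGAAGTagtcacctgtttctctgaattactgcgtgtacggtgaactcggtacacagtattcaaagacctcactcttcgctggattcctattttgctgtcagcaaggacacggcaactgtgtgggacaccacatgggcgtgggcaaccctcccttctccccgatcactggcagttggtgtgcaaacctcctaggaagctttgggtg

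Of 4 motifs searched on both strands these were picked for display after the sequences had been seen, and they do not overlap each other. AGGAAGT begins 223 bases before the start in Mpo, 84 in Elane, 94 in Prtn3 and 206 in Ctsg. Lyz2 holds it on the other strand, 100 bases before the start, so that 5 of the 8 members with a promoter in the table carry it, against 7.69% of 32851 promoters of the same length. Per member 1 start was searched, and for Plac8, Clec12a and Fcgr3 that start lies inside the gene's RefSeq span, not at its edge. AACGG lies 50 bases before the start in Elane and 55 in Prtn3, and 14.5% of all promoters hold it. The others, not marked above, were TGTGGT, the Runx core, found in Ctsg, Lyz2, Plac8 and Clec12a (14.05% of all promoters), and TTNNGNAA, a C/EBP form, found in Lyz2, Plac8, Clec12a and Fcgr3 (36.8%). The Elane and Prtn3 genes are neighbours on chromosome 10, with 3137 bases between the end of Prtn3 and the start of Elane. These matches describe the letters only and were not tied to any measured binding.

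All 6 arrays shared 1 slide and 1 scan, and their signal varied widely. The 75th percentile of the processed signal lay between 50.8 and 201 on the NIKaly/aly arrays and between 47.0 and 225 on the wild-type arrays, and 33.7% to 43.8% and 33.1% to 45.6% of the spots were well above background. The file headers mark NIKaly/aly 6 and wild type 1, the dimmest array of each genotype, for evaluation. Levels below are log2 values relative to each array's 75th percentile, and since each probe has its own brightness, levels of different genes were not set against each other. Kit, Ly6a, Cd34 and Flt3, which define or mark LSK cells, were well above background on all 6 arrays, as were Ly6g (neutrophils) and Cd3e (T cells). The macrophage marker Emr1 was above background on 2 of 3 NIKaly/aly and 3 of 3 wild-type arrays.

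None of the 8 members was called between the genotypes, but each had the lower mean in NIKaly/aly cells. In limma's fit over all genes the adjusted p was 0.99998 for each member, 0 of 8 were called (0% of all genes, 0 of 15682), and 0 of 8 reached an unadjusted p under 0.05, which 1.33% of all genes did in either direction. A mean lower in NIKaly/aly cells was common in itself, at 51.5% of all genes. The median difference of the members was -0.45 on the log2 scale, beside -0.01 over all genes. The 4 arrays in the first row of the slide gave the members a median of -0.52. Row as a block gave -0.45 again, as it must where each row holds equally many arrays of either genotype. The other row held 1 array of each genotype and gave no test. In no member did the genotypes separate: 0 of 8 had every NIKaly/aly array below every wild-type array, which 1.89% of all genes had. Fewer myeloid-primed cells in the sort and less RNA per cell cannot be told apart in such bulk samples.

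Mpo, the myeloperoxidase gene, was read by its brighter probe (chr11:87617840-87617899, + strand, mm9) at 9.28, 8.38 and 8.30 in NIKaly/aly 2, 4 and 6, against 10.15, 8.89 and 9.08 in wild type 1, 3 and 5. NIKaly/aly 2 read above wild type 3 and wild type 5, so the genotypes overlapped, with wild type 1 the highest of all. The means were 8.65 ± 0.55 in NIKaly/aly and 9.37 ± 0.68 in wild-type cells (SD, n = 3 each), a difference of -0.72 ± 0.51 (SE). The dimmer Mpo probe, shown above, read 6.80, 5.36 and 5.60 in NIKaly/aly cells, against 7.74, 6.43 and 6.54 in wild-type cells, a difference of -0.98 ± 0.52. Both probes thus gave the same direction, and on both the highest array was wild type 1.

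Elane, which encodes neutrophil elastase, was read (chr10:79350902-79350961, + strand, mm9) at 5.69, 3.07 and 5.26 in NIKaly/aly cells, against 6.89, 3.40 and 4.97 in wild-type cells. Its range over the 6 arrays, 3.82, was the widest of the members, and the low arrays were NIKaly/aly 4 and wild type 3. The difference of -0.42 ± 0.95 was smaller than the SD within either genotype, 1.41 in NIKaly/aly and 1.75 in wild-type cells. Prtn3, proteinase 3, read 5.07, 3.55 and 3.50 in NIKaly/aly cells, against 5.60, 3.89 and 4.06 in wild-type cells. Here the low arrays were NIKaly/aly 4 and NIKaly/aly 6, and the difference was -0.48 ± 0.58. Ctsg, cathepsin G (chr14:56718795-56718854, - strand), read 7.80, 6.83 and 6.65 in NIKaly/aly cells, against 8.43, 6.94 and 7.04 in wild-type cells. The order of its arrays was close to that of Prtn3, with 1 high array in each genotype, and the difference was -0.38 ± 0.52.

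Plac8 encodes a small cysteine-rich protein that early myeloid and lymphoid progenitors express. Its brighter probe (chr5:100982797-100982856, - strand, mm9) read 8.41, 7.71 and 7.10 in NIKaly/aly cells, against 9.10, 8.08 and 7.84 in wild-type cells, a difference of -0.60 ± 0.50. Its dimmer probe (chr5:101001165-101001224) read 4.39, 3.32 and 3.07 in NIKaly/aly cells, against 4.78, 3.92 and 3.76 in wild-type cells. The first 50 bases of the dimmer probe are the first 50 of a RefSeq transcript whose start lies inside the gene's span. The dimmer probe differed by -0.56 ± 0.44, close to the difference of the brighter probe. On both probes the genotypes overlapped through NIKaly/aly 2, the highest array of its genotype.

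Lyz2, lysozyme (chr10:116719175-116719234, - strand), read 5.34, 2.65 and 4.68 in NIKaly/aly cells, against 5.64, 3.20 and 4.66 in wild-type cells. Its arrays overlapped almost fully and the difference was -0.27 ± 0.80, the smallest of the 8. The longest run of bases that its probe shares with the Lyz1 probe is 6, so the probe sequences differ. The Lyz2 probe was not compared with the rest of the Lyz1 transcript, so whether it also reads Lyz1 was not tested. Tyrobp, also called DAP12, is the adaptor whose ITAM motif recruits Syk below activating receptors. It read 6.82, 4.91 and 5.95 in NIKaly/aly cells, against 7.29, 5.48 and 6.08 in wild-type cells, a difference of -0.39 ± 0.61. Fcgr3, the low-affinity activating receptor for IgG (chr1:172984129-172984188, - strand), read 1.17, -0.95 and 1.02 in NIKaly/aly cells, against 1.68, -0.32 and 1.34 in wild-type cells. The difference was -0.49 ± 0.69, and NIKaly/aly 4 and wild type 3 were again the low arrays, as in Lyz2 and Tyrobp. Clec12a, an inhibitory C-type lectin receptor (chr6:129314880-129314939), did not stand well above background on any of the arrays, so no fold is given for it.

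**Figure D1:**
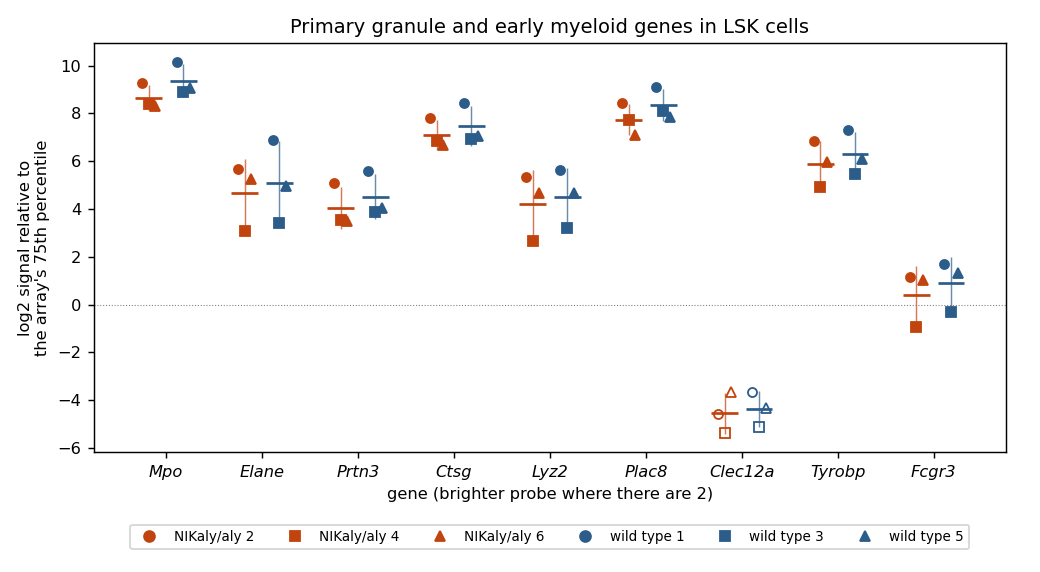
Log2 signal of each member relative to the array's 75th percentile, 1 point per array, with the genotype mean (horizontal line) and SD (vertical line, n = 3), NIKaly/aly left of wild type. Open points (Clec12a) were not well above background; in each of the 8 other genes the NIKaly/aly mean is the lower and the points of the genotypes overlap.

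The members varied more over the arrays than the median gene. Their ranges over the 6 arrays had a median of 2.24 on the log2 scale, against 1.21 over all genes, and 5 of 8 members ranged over more than 2, against 16.6% of all genes. These ranges include the difference between genotypes. On the scale used here, the members fell into 2 loose groups by their pattern over the arrays. Mpo, Prtn3, Ctsg and Plac8 correlated with each other at r = 0.92 to 0.99 (Pearson, n = 6 arrays), and Elane, Lyz2, Tyrobp and Fcgr3 at r = 0.89 to 0.98. Between neighbouring genes of the same granule, Elane and Prtn3, r was 0.79. Tyrobp lay between the groups, at r = 0.90 with Prtn3, 0.87 with Ctsg and 0.84 with Mpo, beside 0.89 with Fcgr3. In the Elane group the low arrays were NIKaly/aly 4 and wild type 3, at -1.81 and -1.48 from the gene's mean for Elane and at -1.61 and -0.98 for Fcgr3. In the Mpo group, by the brighter probes, NIKaly/aly 6 was lower than NIKaly/aly 4, at -0.71 and -0.64 for Mpo and at -0.94 and -0.33 for Plac8. The dimmer Plac8 probe kept this order, at -0.80 and -0.56, but the dimmer Mpo probe reversed it, at -0.81 and -1.05. These correlations rest on 6 arrays that share slide, depth and scaling, and are a description. After quantile normalization, described below, the Mpo group was looser. On NIKaly/aly 2 and wild type 3, Mpo then lay at -0.23 and 0.34 from its mean and Plac8 at -0.16 and 0.44. Prtn3 lay there at 0.41 and -0.22 and Ctsg at 0.02 and -0.03. With median scaling each of these genes lay above its mean on both arrays. The Elane group kept its low arrays after quantile normalization, at -1.64 and -1.30 for Elane.

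Mature neutrophil markers moved with the Elane group. The mean profile of the 18 neutrophil genes (all 18 of the list were tested) was 0.96, -1.45 and 0.23 in NIKaly/aly 2, 4 and 6, against 1.31, -1.35 and 0.29 in wild type 1, 3 and 5. Its correlation over the 6 arrays was 0.99 with Lyz2, 0.98 with Elane, 0.95 with Fcgr3 and 0.95 with Tyrobp. For the other group it was 0.77 with Prtn3, 0.73 with Ctsg, 0.69 with Mpo and 0.48 with Plac8. The summed signal of the list, as multiples of the array's 75th percentile, ranged from 1295 to 4750 on NIKaly/aly arrays and from 1199 to 7966 on wild-type arrays. Ly6g itself read 2.37, 0.02 and 1.59 in NIKaly/aly cells, against 2.61, 0.10 and 1.72 in wild-type cells. The sort was meant to remove such lineage-positive cells, and the part of these transcripts in the members' values was not tested.

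**Figure D2:**
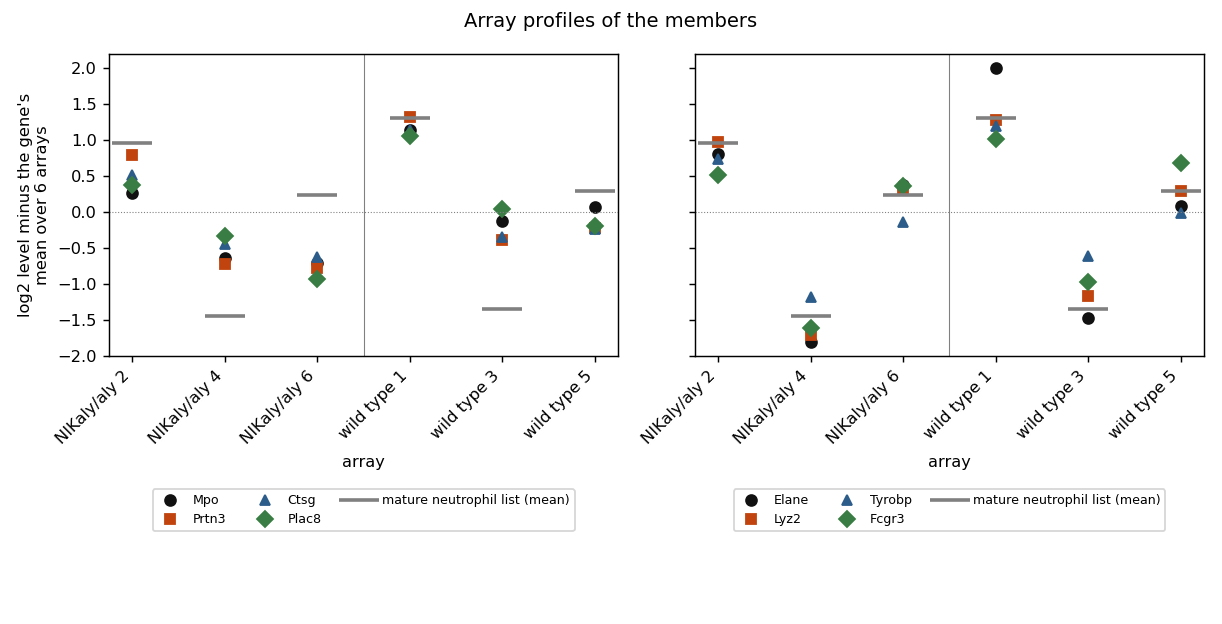
Log2 level minus the gene's own mean over the 6 arrays, with the 3 NIKaly/aly arrays left of the line and the 3 wild-type arrays right of it, for Mpo, Prtn3, Ctsg and Plac8 (left panel) and Elane, Lyz2, Tyrobp and Fcgr3 (right panel). Grey bars are the mean of the 18 mature neutrophil genes; on NIKaly/aly 4 and wild type 3, where that mean is -1.45 and -1.35, Elane lies at -1.81 and -1.48.

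Ranks within an array do not depend on its scaling, and on that scale the brighter Mpo probe held nearly the same place within each genotype. Among the 55681 probes of an array, ordered from the brightest, it stood at rank 299, 323 and 331 in NIKaly/aly cells, against 201, 202 and 199 in wild-type cells. The dimmer Mpo probe stood at 1131, 1560 and 1363 in NIKaly/aly cells, against 768, 908 and 886 in wild-type cells. The genotypes did not overlap on either probe. The brighter Plac8 probe stood at 542, 494 and 689 in NIKaly/aly cells, against 388, 374 and 454 in wild-type cells, also without overlap, whereas its dimmer probe overlapped, at 3308, 4336 and 4682 in NIKaly/aly and 2789, 3276 and 3493 in wild-type cells. By the brighter probe, 2 of 8 members separated downward in this way, which 2.07% of all genes did and 2% of the 500 genes of highest mean level. Ctsg overlapped, with NIKaly/aly 2 at rank 706 ahead of wild type 3 at 723. This view of the data was chosen after the values had been seen.

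Quantile normalization gives all arrays the same distribution by assigning values from the ranks within each array. It therefore repeats the separation by rank and is not a separate check of it. On its log2 scale Mpo read 15.44, 15.33 and 15.29 in NIKaly/aly cells, against 15.93, 16.01 and 16.02 in wild-type cells, a difference of -0.64 ± 0.11. Plac8 read 14.53, 14.66 and 14.03 in NIKaly/aly cells, against 14.97, 15.12 and 14.81 in wild-type cells, a difference of -0.57 ± 0.19. These were the 2 of 8 members without overlap on this scale, as 2.09% of all genes were in this direction. With limma's unadjusted p of 0.000576 for Mpo and 0.0216 for Plac8, the adjusted p over all genes was 0.99995 for both, so neither was called, and 0.867% of all genes had an unadjusted p under 0.05 in this direction.

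**Figure D3:**
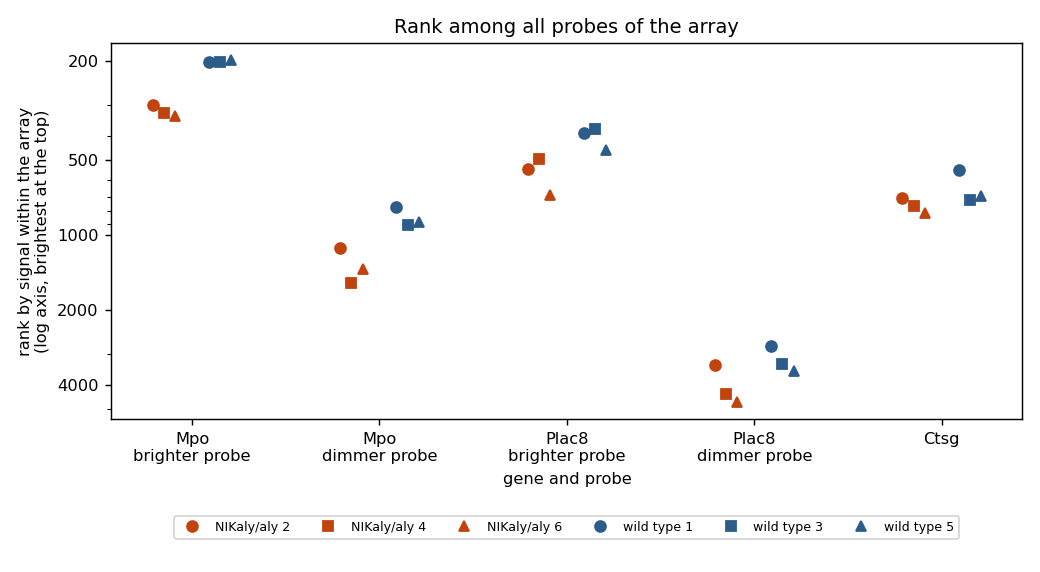
Rank of a probe's signal among the 55681 probes of its array on an inverted log axis, the brightest at the top, 1 point per array, NIKaly/aly left of wild type. The brighter Mpo probe stands at ranks 299 to 331 on NIKaly/aly arrays and at 199 to 202 on wild-type arrays, and Ctsg overlaps.

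The direction of 6 of 8 members turned when certain single arrays were left out. Without wild type 1 the median difference of the members was 0.08, beside 0.10 over all genes. There 3 of 8 members were lower in NIKaly/aly cells, as 38.5% of all genes were. Without NIKaly/aly 4 the members' median was -0.06, beside 0.04 over all genes, with 4 of 8 lower. Without NIKaly/aly 2 it was -0.89, beside -0.11 over all genes, and without wild type 3 it was -0.86, beside -0.04. Each of these omissions leaves groups of unequal size. Without samples 1 and 2 together, which leaves 2 arrays of each genotype, the median was -0.40 with 8 of 8 lower, Mpo differed by -0.65 and Elane by -0.02, and the adjusted p was 0.99995 for each member. Mpo and Plac8 read lower in NIKaly/aly cells whichever single array was left out, Mpo by -1.03 to -0.33 and Plac8 by -0.93 to -0.22. Elane turned to 0.48 without wild type 1 and to 0.39 without NIKaly/aly 4. Without both arrays marked for evaluation, an option added once the values were known, Mpo differed by -0.15, Fcgr3 by -0.40 and Plac8 by 0.10, beside a median of 0.15 over all genes.

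Consecutively numbered samples resembled each other. Over the 15682 genes, deviations from the genotype mean correlated at r = 0.74 between samples 2 and 1, 0.69 between 4 and 3 and 0.60 between 6 and 5, and for each sample this was the highest correlation with a sample of the other genotype. The labels do not pair them, so the pairs were taken from the consecutive numbers. Each pair also lay in adjacent columns of the same slide row. Within them 6 of 8 members, all but Elane and Lyz2, were lower in NIKaly/aly cells in all 3 pairs, which 16.2% of all genes were. With the pair as a block in limma, on 2 residual degrees of freedom, the same 6 had an unadjusted p under 0.05, as did 4.09% of all genes in this direction. None of the 8 was called at an adjusted p of 0.05, as 0.0128% of all genes were (2 of 15682). Mpo differed by -0.87, -0.51 and -0.78 in the pairs, with an SE of 0.14 and an adjusted p of 0.168, the lowest of the members, and Plac8 by -0.69, -0.37 and -0.74.

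**Figure D4:**
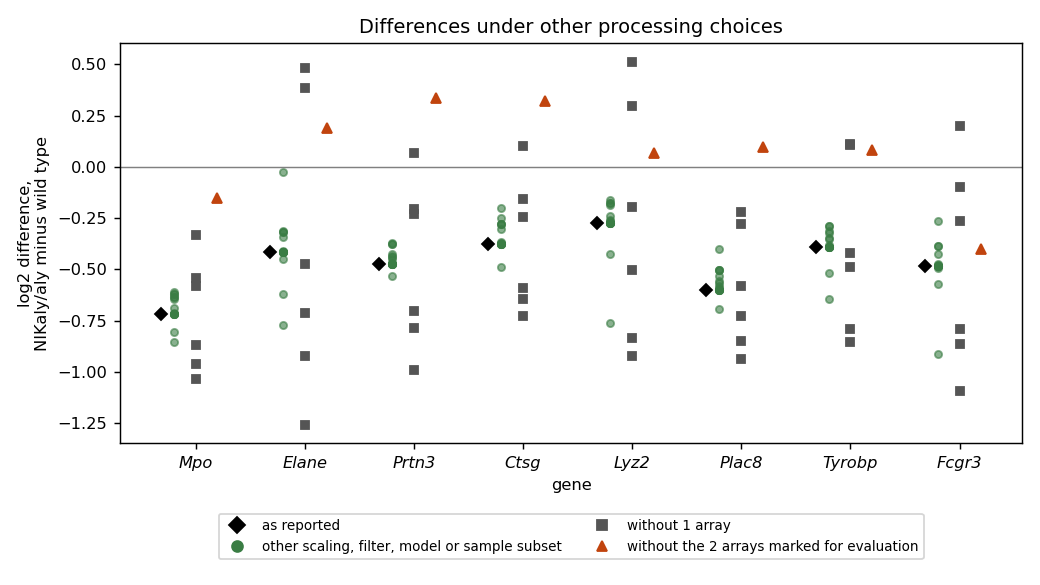
Log2 difference of each tested member, NIKaly/aly minus wild type, as reported (diamonds), under other scalings, filters, models or sample subsets (circles), without 1 array (squares) and without both arrays marked for evaluation (triangles). Mpo stays below 0 throughout, from -1.03 to -0.15, whereas the squares of Elane run from -1.26 to 0.48.

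The factors and partners of these genes gave no call either. Of the myeloid transcription factors, 9 of 10 were found on the array under the listed name and 9 were tested, with 6 lower and 3 higher in NIKaly/aly cells and a median difference of -0.07. Irf8, which directs progenitors toward monocytes and dendritic cells, read 3.95, 3.59 and 3.07 in NIKaly/aly cells, against 5.25, 4.79 and 4.23 in wild-type cells, a difference of -1.22 ± 0.37 with no overlap. Cebpa, the C/EBP factor needed for granulocyte formation, read 1.66, 0.93 and 0.64 in NIKaly/aly cells, against 2.25, 1.57 and 1.49 in wild-type cells, a difference of -0.69 ± 0.36 with overlap. The adjusted p of limma was 0.99998 for both genes.

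Of 11 tested genes that process or pack granule proteins, 7 were lower and 4 higher, with a median of -0.13. Cst7, an inhibitor of cysteine cathepsins, differed by -0.33 ± 0.44, and Srgn, the proteoglycan core that holds granule proteases, by 0.25 ± 0.36. Of 10 tested Fc receptor and ITAM adaptor genes, which include the partners of Tyrobp and Fcgr3, all 10 had the lower mean in NIKaly/aly cells, with a median of -0.20. Syk, the kinase recruited by ITAM motifs, differed by -0.29 ± 0.26 and the inhibitory IgG receptor Fcgr2b by -0.36 ± 0.36. Of the C-type lectin genes listed with Clec12a, 3 of 7 were tested, with 2 lower and 1 higher, and Clec7a, a receptor for fungal glucans, differed by 0.07 ± 0.65. No gene of these lists was called.

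Markers of other cells gave the following values. Of the 18 neutrophil genes 17 had the lower mean in NIKaly/aly cells, with a median of -0.16. All 11 tested genes of the monocyte, macrophage and dendritic cell list were lower, with a median of -1.01. Only 5 of the 11 were well above background on all 6 arrays, and Itgax, whose value is the median, was not. The summed signal of the 11 ranged from 70.7 to 191 in NIKaly/aly and from 96.9 to 312 in wild-type cells, with Ly6c1 the brightest gene on every array. Of these 11 genes 4 had an unadjusted p under 0.05 in limma's fit and did not overlap. Over all genes 1.33% passed that p in either direction, and 1.89% lay wholly lower in NIKaly/aly cells. Among the 4 were Ms4a6c, a membrane protein gene, at -2.35 ± 0.43 and Csf1r, which encodes the M-CSF receptor of monocytes and macrophages, at -1.17 ± 0.33. Cx3cr1 and Itgax, also among them, were well above background on 5 of 6 arrays. The 9 tested LSK and stem cell genes went 6 higher and 3 lower, with a median of 0.18 and a summed signal of 361 to 372 in NIKaly/aly and 298 to 321 in wild-type cells. Cd34 was the brightest of these genes on every array and so weighs most in that sum. By itself Cd34 overlapped between the genotypes, at 7.43 in NIKaly/aly 4 against 7.53 in wild type 1. Of B-cell genes 10 of 10 tested were lower, with a median of -0.71. Of the genes of eosinophils, basophils and mast cells 8 of 10 were lower (median -0.31), of T cells 5 of 7 (median -0.15), of NK cells 2 of 4 (median -0.50) and of erythroblasts 6 of 7 (median -0.27). In the order named from B cells to erythroblasts, 8, 7, 6, 2 and 5 of the tested genes were well above background on all 6 arrays. The sum over the tested members themselves ranged from 692 to 1426 in NIKaly/aly and from 947 to 2404 in wild-type cells. No marker gene was called, and the part of these markers in the members' values was not tested.

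The genes most like the primary granule enzymes over the arrays were sought among 7170 tested genes with an SD over arrays of at least 0.5. Against the mean centred profile of Mpo, Elane, Prtn3 and Ctsg, Cited4 correlated at r = 0.996, Ifi30 at 0.995, Cd52 at 0.994 and Anxa2 at 0.994, together with 1 probe that carries no gene name, at 0.996 (n = 6 arrays). Such likeness was frequent: 1064 of the 7170 genes, 14.8%, had r over 0.9, so the profile was shared by many genes on these arrays.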

How the data were processed

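RNA of sorted LSK cells was extracted with TRIzol, amplified by T7 transcription, labelled with Cy3 and hybridised 1 sample per array, per the labels' protocols. The authors read the intensity of each spot in Agilent Feature Extraction, version 10.7.3.1 in the file headers, where probe positions are on mm9; the deposited processed signal is background-subtracted. The authors' deposited series table holds a ratio, the processed signal over the array's median, and served as an alternative. From there, log2 processed signal had the log2 of the 75th percentile (59305 non-control spots of the same array) subtracted. Outlier-flagged spots were left out, no spot was saturated, and spots of a probe were averaged. Probes well above background on at least 3 of 6 arrays were tested, 1 per gene (the highest mean), 15682 genes in all, with limma 3.58.1 in R 4.3.3 (lmFit, eBayes with trend, two-sided, Benjamini-Hochberg at 0.05). Its estimates of known differences were checked on simulated data. The simulated errors were independent between arrays, so that check does not cover the resemblance of consecutive samples. Genotype was the only term. The number of arrays limits the precision. Named genes were all members, at most 2 per related list (smallest unadjusted p, above background on all 6 arrays) and the 5 most similar profiles. Lists of other cell types are given by counts and summed signals, with the marker Ly6g. From these lists Ms4a6c, Csf1r, Ly6c1, Cx3cr1, Itgax and Cd34 were named after their values were seen. The members and lists were chosen with earlier results of these data known. Alternatives changed scaling, background correction, filter, probe choice, model, blocks and samples.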

Additional observations from a re-analysis of the deposited data

How the results depend on the processing

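Of 184 member differences under alternatives, 169 kept the lower mean in NIKaly/aly cells. Many could not differ from the reported value: both filters, separate probes, no trend, and the pair and row blocks return it unchanged. The authors' table repeats the member differences of median scaling. The count therefore says little of how stable the direction is. The adjusted p passed 0.05 only with slide column as a random block, for Mpo at 0.0416 and Plac8 at 0.0476. That setting called 2 members and 1379 genes, where the reported fit called 0 (208 genes at an unadjusted p under 0.05). Every NIKaly/aly array lay in an even column and every wild-type array in an odd one, so column and genotype cannot be told apart. Gene calls were 10 with median scaling, 9 in the authors' deposited table, 1 with normexp, 2 with no filter on dim probes, 5 with array quality weights, 2 with the pair block and 2 without the arrays marked for evaluation. Leaving out 1 array gave 0 to 1 genes called (1 without wild type 3), 0 members called, and members' medians of -0.89 to 0.085. Median scaling put 35.4% of all genes lower in NIKaly/aly cells, against 51.5% as reported. The cause of these shifts was not tested.

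Without the arrays marked for evaluation the members' median was 0.091, with Elane at 0.19, Prtn3 at 0.34, Ctsg at 0.32, Lyz2 at 0.070, Plac8 at 0.098 and Tyrobp at 0.084. Leaving out 1 array, Elane ranged from -1.26 to 0.48, Prtn3 from -0.99 to 0.066, Ctsg from -0.73 to 0.10, Lyz2 from -0.92 to 0.51, Tyrobp from -0.85 to 0.11 and Fcgr3 from -1.10 to 0.20. The values above 0 came without NIKaly/aly 4 (Elane, Lyz2, Tyrobp and Fcgr3) or without wild type 1 (Elane, Prtn3, Ctsg, Lyz2 and Tyrobp).

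The genotypes share no sample number, so the pair block rests on consecutive numbers alone, a pairing that the labels do not give.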
